A study of Sus scrofa with 10 samples.

Results

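The 6 genes described here are CSNK1D, which encodes casein kinase 1 delta, and 5 genes of lactate handling, namely SLC16A3, SLC16A1, BSG, LDHA and LDHB. CSNK1D was chosen by a measured value, its breed difference in these same pigs, so its normalised counts in the breeds are given as a description with no test. SLC16A3 was chosen for its place beside CSNK1D, and the other 4 for their function. Of 25880 genes in the deposited table, 4 of the 6 could be paired with an identifier, and SLC16A1 and BSG are not analysed here. The samples were longissimus lumborum muscle, the loin muscle, of castrated male pigs of the Portuguese breeds Alentejano (AL, n = 5) and Bísaro (BI, n = 5), killed at about 150 kg. The pigs were purebred, and both breeds were kept free ranging and fed commercial diets. Each pig gave 1 stranded mRNA library, with no treatment and no second time point.

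In working muscle, glycolysis ends in pyruvate, which lactate dehydrogenase turns into lactate. The enzyme is built from A subunits (LDHA), which prevail in fast glycolytic fibres, and B subunits (LDHB), which prevail in oxidative fibres and in heart. Lactate leaves glycolytic fibres together with a proton through the transporter MCT4 (SLC16A3) and is taken up by oxidative fibres mostly through MCT1 (SLC16A1), and both transporters need the membrane protein basigin (BSG) to reach the cell surface. Casein kinase 1 delta phosphorylates the PER proteins of the circadian clock, among many other substrates.

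In RefSeq on the Sscrofa11.1 build, CSNK1D lies on chr12:768856-794495 on the plus strand and SLC16A3 on chr12:796882-807480 on the minus strand. The genes are transcribed towards each other, and 2386 bp separate their 3′ ends. No other RefSeq gene lies within 5 kb of CSNK1D on the opposite strand. The next genes within 50 kb, all on the strand of CSNK1D, were SECTM1 and CD7, neither paired with an identifier, and CCDC57, with 1 read in AL and 2 in BI. The libraries were stranded, but the strand setting of the counting is not given in the sources used here. For CSNK1D and every other gene here, its own reads and reads of a transcript from the opposite strand cannot be told apart. The counts below, low ones included, are therefore uncertain as levels of a gene's own RNA.

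**Figure D1:**
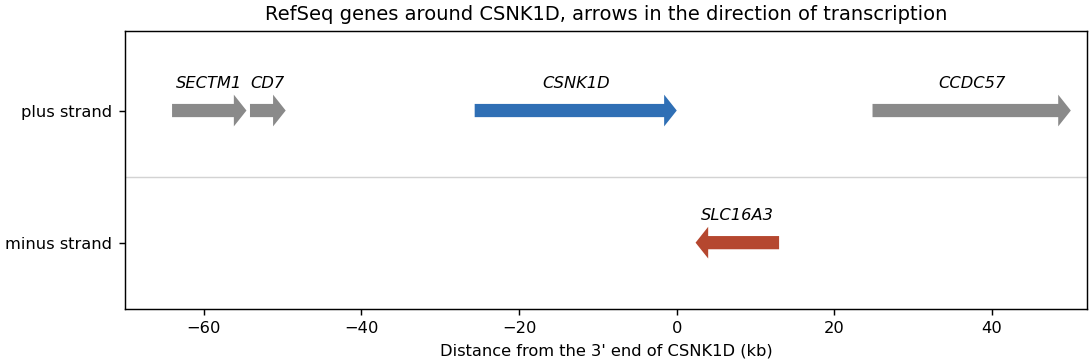
RefSeq genes around CSNK1D, drawn to scale by distance in kb from the 3′ end of CSNK1D, with arrows in the direction of transcription and the plus strand above the minus strand. CSNK1D and SLC16A3 point at each other across a gap of 2386 bp, and CCDC57, drawn only as far as 50 kb, starts 24838 bp away.

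The 3′ ends are shown because they are where the neighbours face each other and where LDHB is duplicated. AATAAA, the usual polyadenylation signal, was searched on the strand of the gene in its last 50 bases, where 51.0% of 19559 protein-coding RefSeq genes hold it. Each stretch below is 30 bases read 5′ to 3′ from the RefSeq assembly, with AATAAA in capitals, and for SLC16A3, where these letters were not found, it is the last 30 bases of the gene.
CSNK1D, chr12:794448-794477, plus strand: ctccgtgtaaatAATAAActcgtgaccact
SLC16A3, chr12:796882-796911, minus strand: ctttctcaacaaacagcctagttattttta
LDHA, chr2:40814165-40814194, minus strand: actaaaacaacaAATAAAccttgaacagtg
LDHB, chr5:51831183-51831212, plus strand: agtccttgaacaAATAAAgttaactatcat
LDHB, chr2:12988755-12988784, minus strand: agtccttgaacaAATAAAgttaactatcat
The stretches of the 2 LDHB loci are identical.

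Between 2298045 and 3343194 reads per library were counted on genes (AL median 2513854, BI median 2885579), and the 10 highest genes took 48.5% to 60.3% of them. The paper reports many times more sequenced reads per sample, nearly all of them aligned. Reads counted on genes were thus a small part of each library, and the reason was not tested. Among its most expressed genes the paper names RABEP2, SEPTIN1, CTSF and SPSB2. Values below are normalised counts, that is reads divided by the size factor of the library, on which 3 reads are worth 2.47 to 3.39. In the labelled tissue, the 6 paired genes of 10 that define skeletal muscle summed to 8181 to 21704 in AL and 15838 to 30082 in BI, with ACTA1 at 10815 and 14178 and DES at 1232 and 1436 on average. Slow fibre genes summed to 761 to 1449 in AL and 447 to 797 in BI, and 6 of 6 tested had a higher mean log2 value in AL (median log2 fold change 0.71), led by TNNT1 (387 in AL, 229 in BI) and TNNC1 (103 and 60.4). Fast fibre genes summed to 15101 to 27374 in AL and 23057 to 35396 in BI, and 7 of 9 tested had a higher mean log2 value in BI (median -0.12), among them TNNT3 (9072 in AL, 12392 in BI) and TNNI2 (2319 and 2978), with ATP2A1 and ACTN3 in the other direction. None of these fibre genes passed the test, and their part in the results below was not tested.

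Among markers of other cells, ADIPOQ, LEP, TEK, KDR, PTPRC, CD3E, CD163 and PDGFRA each had 3 reads or fewer over all pigs. Other markers of fat (CIDEC and LIPE), of connective tissue (COL1A1 and COL3A1) and of smooth muscle (MYH11) were counted, with breed means between 7.72 and 27.7. On the immune list, CD68 averaged 31.5 in AL and 22.0 in BI and ITGAM 5519 and 5067. PTPRC, CD3E and CD163 of the same list had 3 reads or fewer, so ITGAM is not read here as a measure of immune cells. The source of its high count was not tested. No paired gene of the erythrocyte and endothelial lists had enough reads to be tested. Nothing in the labels says how many cells of each kind the samples held. Fewer cells of a type, less RNA per cell and reads that were not counted thus cannot be told apart. The paper measured ADIPOQ and LEP in these muscles by qPCR.

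CSNK1D was high in 4 of the 5 BI pigs and low in all AL pigs and in 1 BI pig. Its normalised count (ENSSSCG00000035852) was 747 in AL44, 829 in AL46, 833 in AL49, 769 in AL52 and 793 in AL63. In the BI pigs it was 1351 in BI25, 1415 in BI34, 1415 in BI36, 790 in BI37 and 1417 in BI42. The 10 pigs thus fell into 2 sets with no pig between 833 and 1351, and BI37 stood inside the AL range. The mean was 794 ± 37.4 in AL and 1278 ± 274 in BI (SD, n = 5 each), 1.61 times higher in BI. On the scale of log2(normalised count + 1), on which all fold changes are given as AL minus BI, the difference was -0.65 (SE 0.17), and it was -0.82 without BI37. These values rest on 4021 reads in AL and 6697 in BI.

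SLC16A3, the lactate exporter, was also higher in most BI pigs, at a far lower level. Its normalised count (ENSSSCG00000024018) was 10.4 in AL44, 9.30 in AL46, 16.2 in AL49, 12.5 in AL52 and 18.1 in AL63. In the BI pigs it was 24.7 in BI25, 29.7 in BI34, 19.0 in BI36, 17.04 in BI37 and 26.4 in BI42. The breeds overlapped only through AL63, the highest AL pig, and BI37, again the lowest BI pig. The reads behind these values were few, 10 to 16 per AL pig and 17 to 30 per BI pig.

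The mean of SLC16A3 was 13.3 ± 3.76 in AL and 23.4 ± 5.27 in BI (SD, n = 5 each), 1.76 times higher in BI, a log2 fold change of -0.78 (SE 0.27). The two-sided exact permutation test over all divisions of the pigs into 5 and 5 gave p = 0.0159, where the smallest possible value is 0.00794. In the fit of limma over 3807 genes, the unadjusted p was 0.0121 and the Benjamini-Hochberg adjusted p was 0.351, so the difference did not pass the test across all genes. The fit called 1 gene, INTS11, higher in BI with an adjusted p of 0.00807, which is 0.0263% of the genes tested. At an unadjusted p under 0.05 there were 358 genes, or 9.4%, and DESeq2 on the recovered reads called 55 genes at its adjusted threshold. As in CSNK1D, 4 of 5 BI pigs lay above every AL pig, a pattern that 128 of the 3807 genes showed, or 3.36%.

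**Figure D2:**
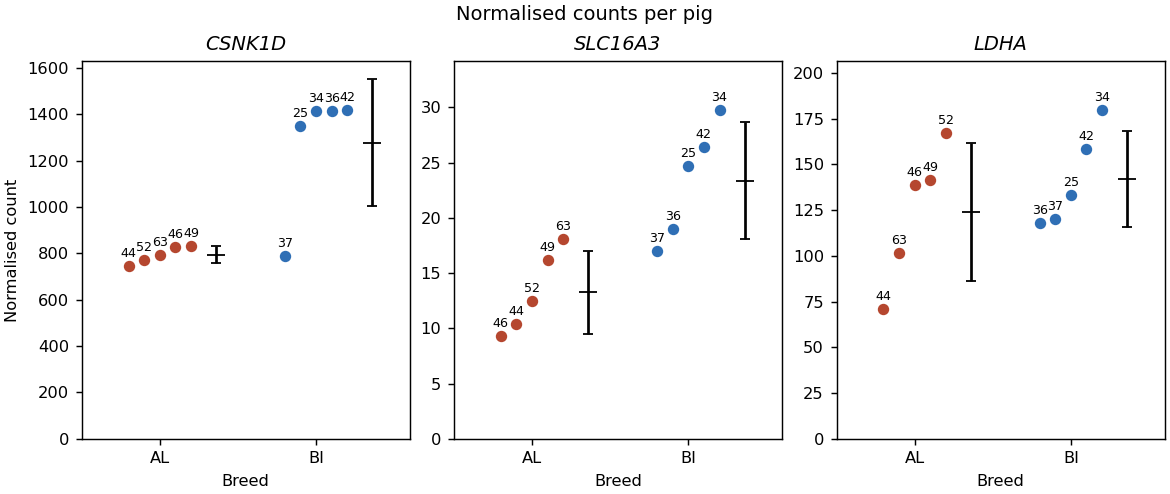
Normalised counts of CSNK1D, SLC16A3 and LDHA in each pig, in panels with separate linear axes that start at 0; points are pigs with their number, and black bars are the mean ± SD of 5 pigs per breed. In CSNK1D, BI37 at 790 sits among the AL pigs while the other BI pigs lie at 1351 to 1417, and in LDHA the breeds overlap over most of their range.

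Setting the neighbours side by side, BI34, BI42 and BI25 were the highest pigs of SLC16A3 and stood in the upper set of CSNK1D. BI36, in the upper set of CSNK1D with 1415, had only 19.0 of SLC16A3, close to the 18.1 of AL63. Because CSNK1D falls into 2 separate sets of pigs, no correlation over all 10 is given as a test. Within the lower set of 6 pigs, the 5 AL pigs and BI37, Pearson's r of CSNK1D and SLC16A3 was 0.16 (exact permutation p = 0.744, adjusted 0.744 over 3 relations) and Spearman's rho was 0.14 (exact permutation p = 0.803, adjusted 0.803). Without AL44 and AL49, Pearson's r was -0.53. The set was formed on the CSNK1D counts themselves, which narrows their range, so these values say little about the pair in either direction. No r is given for the 4 pigs of the upper set.

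For every 1000 reads of CSNK1D there were 11.2 to 22.8 reads of SLC16A3 in a pig. The mean of this ratio was 16.7 ± 4.56 in AL and 18.6 ± 3.23 in BI (SD, n = 5 each). The ranges of the breeds overlapped, and BI37, with 21.6, was the highest BI pig and lay within the AL range.

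**Figure D3:**
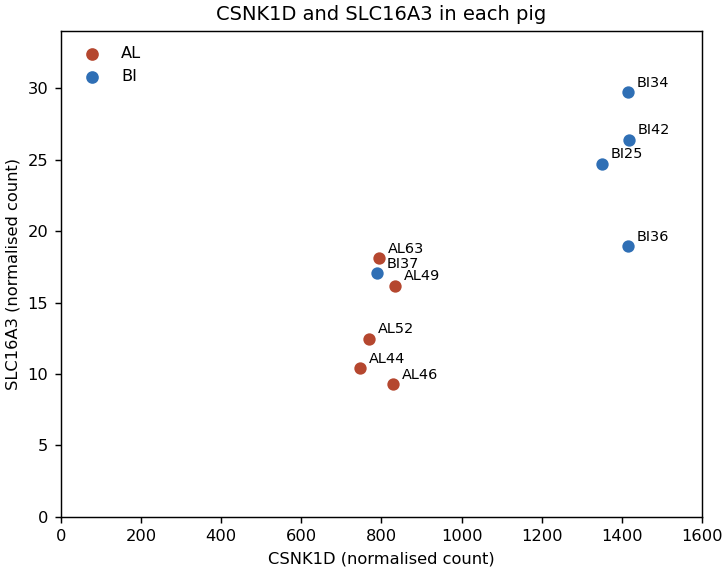
SLC16A3 against CSNK1D in each pig, both as normalised counts on linear axes that start at 0; red points are AL and blue points BI. One set of 4 BI pigs lies at 1351 or more of CSNK1D, and the other set holds the AL pigs and BI37, between 747 and 833.

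Over the 10 pigs, the gene most like CSNK1D on the log2 scale was NFE2L3, a transcription factor of the CNC family (Pearson's r 0.91). It was followed by PSMA5, a subunit of the proteasome core (0.89), CHEK2, a kinase of the DNA damage response (0.87), ENSSSCG00000034195 (0.85) and CLOCK, the clock transcription factor (0.84). These values are a description, with the 2 sets of pigs of CSNK1D in all of them, and the values of a pig all come from 1 library. CLOCK was among the genes compared only through its counts in BI, where it was higher. SLC16A3 came 13th among the other 3806 genes, with 0.81. For SLC16A3 the most alike were PSMA5 (0.94), ENSSSCG00000033597 (0.93), XRCC6, a subunit of the Ku DNA end-binding complex (0.91), ENSSSCG00000032251 (0.91) and NFE2L3 (0.90), so PSMA5 and NFE2L3 stood among the 5 of both. PSMA5 had a mean of 589 in AL and 777 in BI, and NFE2L3 of 23.5 and 72.0. Each gene among the 5 most like CSNK1D or SLC16A3 had a higher mean in BI, as these 2 genes did. Likeness over the 10 pigs thus cannot be told apart from a shared breed difference.

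LDHA, the subunit of muscle lactate production, overlapped between the breeds. Its normalised count (ENSSSCG00000013366, chr2:40814163-40827284, minus strand) was 70.8 in AL44, 139 in AL46, 141 in AL49, 167 in AL52 and 102 in AL63. In the BI pigs it was 133 in BI25, 180 in BI34, 118 in BI36, 120 in BI37 and 158 in BI42. AL44 was the lowest of all pigs and BI34 the highest, and only BI34 exceeded every AL pig. The mean was 124 ± 37.8 in AL and 142 ± 26.4 in BI (SD, n = 5 each), a log2 fold change of -0.24 (SE 0.23). The limma adjusted p was 0.802 and the two-sided exact permutation p was 0.389, and leaving out AL44 brought the fold change to -0.05 on the log2 scale. No gene lies on the opposite strand within 5 kb of LDHA, and its neighbour LDHC, the testis subunit on the same strand, had 5 reads in AL and 4 in BI.

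The relation of LDHA with the exporter did not pass the test. Over 10 pigs, Pearson's r of SLC16A3 and LDHA was 0.45 (permutation p = 0.188, adjusted 0.375) and Spearman's rho was 0.31 (permutation p = 0.387, adjusted 0.746), and without AL46 and BI34 r was 0.49. The r over 10 pigs includes the breed difference, and with each breed centred on its own mean it was 0.34 and did not pass either. Leaving out 1 pig at a time moved the uncentred r to between 0.19, without AL44, and 0.61, without AL46 or without AL52. With CSNK1D, within the lower set of 6 pigs, r was 0.56 (exact permutation p = 0.25, adjusted 0.375) and rho was 0.37 (exact permutation p = 0.497, adjusted 0.746). With library sizes that leave out the 10 highest genes, the r of CSNK1D and LDHA was 0.14, and without AL44 and AL49 it was -0.22.

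With the glycolysis genes, LDHA had a positive r in 9 of 10 pairs, with a median of 0.57. The lowest was -0.32 with PFKM, muscle phosphofructokinase, and the highest 0.82 with PKM, pyruvate kinase, which makes the pyruvate that LDHA reduces. For PKM the permutation p was 0.0066 (adjusted 0.0659 over 10 relations) and rho was 0.73 (permutation p = 0.02, adjusted 0.200). None of the 10 relations passed at an adjusted p of 0.05. Without AL44 and AL63 the r was 0.68 with PKM and 0.18 with PFKM, and it ran from -0.07 (PGK1) to 0.78 (SLC2A4) over the 10 genes. AL44, the pig with the lowest LDHA, was also the lowest pig in 6 of the 10 genes.

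LDHB, the subunit of oxidative fibres, was all but absent from the counts. Its identifier (ENSSSCG00000032557) had 1 read in AL49, a normalised count of 1.08, and 1 read in BI36, a normalised count of 0.862, with 0 reads in the other 8 pigs. Every library thus lay under the limit of 3 reads that a count of 0 allows, a normalised count of 2.47 to 3.39, and no fold change is given. RefSeq places LDHB at 2 loci, chr5:51810932-51831218 with 8 exon blocks and chr2:12988754-12990033 with 1 exon block, and on chromosome 2 the annotated pseudogene LOC407246 covers the whole locus on the same strand. LOC110259547, not paired with an identifier, lies 2693 bp away on the opposite strand. The sources used here do not say to which the identifier belongs. Of the exon bases at the chromosome 5 locus, 85.3% lie in a stretch with a copy elsewhere in the genome at 98% identity or more. The longest match was 1208 bp on chromosome 2 at 99.1% identity.

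Of 1342 windows of 76 bases along the joined exons of the chromosome 5 locus, 501 (37.3%) occur letter for letter in the copy on chromosome 2. How reads that match 2 places were treated is not given in the sources used here, so the low count of LDHB is uncertain as a measure of its RNA. CSNK1D, SLC16A3, SLC16A1, BSG and LDHA had no copy at that identity over 76 bases or more. For SLC16A1 (chr4:107510920-107547609, plus strand), LRIG2 on the opposite strand overlaps it by 389 bp and had 1 read in AL and 2 in BI. BSG (chr2:77735586-77743451, minus strand) has no gene on the opposite strand within 5 kb.

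Per kb of RefSeq exon, CSNK1D stood at 200 normalised counts, LDHA at 47.5 and SLC16A3 at 4.18 (means of 10 pigs). The length is that of all RefSeq exons of a gene joined, from 1157 bp in TPI1 to 7452 bp in PKM. The reads were counted on the Ensembl annotation, so the order of genes on this scale depends in part on these lengths. The enzymes before LDHA ranged widely on this scale. Enolase 3 (ENO3) had 1683, aldolase A (ALDOA) 1087, GAPDH 848 and PGAM2 613, and each stood above LDHA in every pig. CSNK1D lay near PFKM (205) and TPI1 (193), whose ranges over pigs overlapped with its own, and LDHA lay among GPI (51.3), PKM (70.6) and PGK1 (38.1), likewise with overlapping ranges. SLC16A3 was lowest, with a range of 2.12 to 6.79 that overlapped only with the glucose transporter SLC2A4 (7.41).

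**Figure D4:**
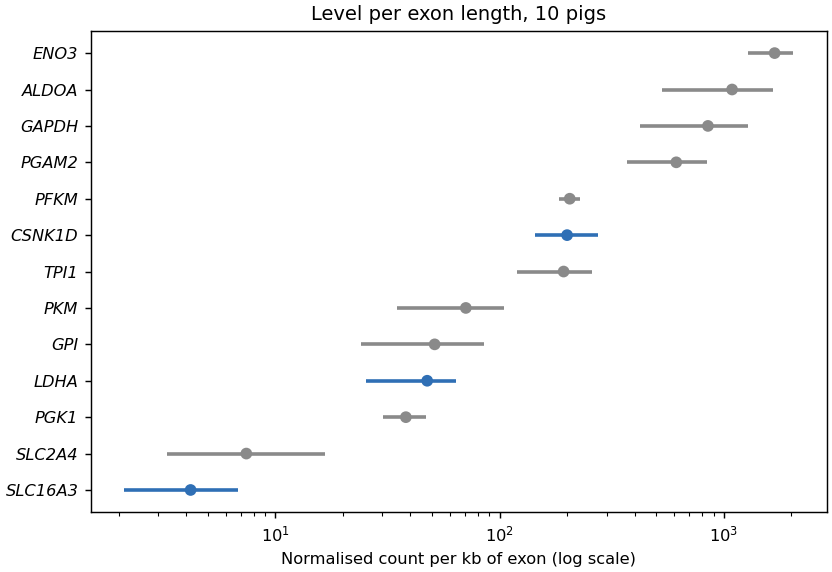
Normalised count per kb of RefSeq exon on a log axis, for 3 of the 6 genes (blue) and 10 glycolysis genes (grey); points are means of 10 pigs and lines run from the lowest to the highest pig. SLC16A3 is at the bottom with 4.18, LDHA lies at 47.5 between PGK1 and GPI, and ENO3 is at the top with 1683.

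Around these genes, no gene of the lists passed the limma test in either direction. Of 29 other genes of pyruvate and lactate handling, 26 were paired and 8 tested. Of the 6 that reached the minimum count in both breeds, 3 had a higher mean log2 value in AL and 3 in BI (median log2 fold change -0.01, against -0.021 over all genes tested), while LDHD and PDK2 reached it only in AL, where they were higher. LDHD, the mitochondrial D-lactate dehydrogenase, had means of 12.7 in AL and 7.86 in BI (adjusted p = 0.666), and PDK2, a kinase that inactivates pyruvate dehydrogenase, was 11.3 ± 2.85 and 8.90 ± 3.22 (adjusted p = 0.795). In the other direction, HIF1A, the oxygen-regulated transcription factor, was 68.7 ± 29.1 in AL and 106 ± 41.3 in BI (adjusted p = 0.563), and PDHB of the pyruvate dehydrogenase complex was 278 ± 62.3 and 310 ± 39.7 (adjusted p = 0.802). SLC16A7 and EMB, another lactate transporter and another transporter chaperone, had 3 reads or fewer over all pigs.

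Of 11 glycolysis genes, 10 were tested, 1 with a higher mean log2 value in AL and 9 in BI (median log2 fold change -0.13), and none passed the test. GAPDH was 3710 ± 1419 in AL and 4296 ± 1084 in BI, ENO3 was 2291 ± 344 and 2535 ± 273, and TPI1 was 230 ± 67.6 and 215 ± 47.3. The breeds overlapped in each of them.

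Of 17 casein kinase 1 and clock genes beside CSNK1D, 15 were paired and 6 tested. Of the 4 that reached the minimum count in both breeds, 3 had a higher mean log2 value in AL and 1 in BI (median 0.27), while CRY2 reached it only in AL and CLOCK only in BI, each in the breed where it was higher. PER1, a target of casein kinase 1, was 28.2 ± 8.17 in AL and 16.1 ± 5.18 in BI, with a log2 fold change of 0.79 (SE 0.31) and an adjusted p of 0.440. CLOCK was 7.97 ± 3.92 and 16.6 ± 6.42, with a log2 fold change of -0.98 (SE 0.39) and an adjusted p of 0.444. CRY2, a repressor of the clock, was 12.2 ± 3.86 and 9.31 ± 3.22, and CSNK2B, the regulatory subunit of casein kinase 2, was 69.2 ± 15.1 and 75.5 ± 5.91. The breeds overlapped in these 4 genes, and the hour of sampling is not given in the labels. CSNK1G1 and CSNK1G3, close relatives of CSNK1D, had 3 reads or fewer over all pigs.

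**Figure D5:**
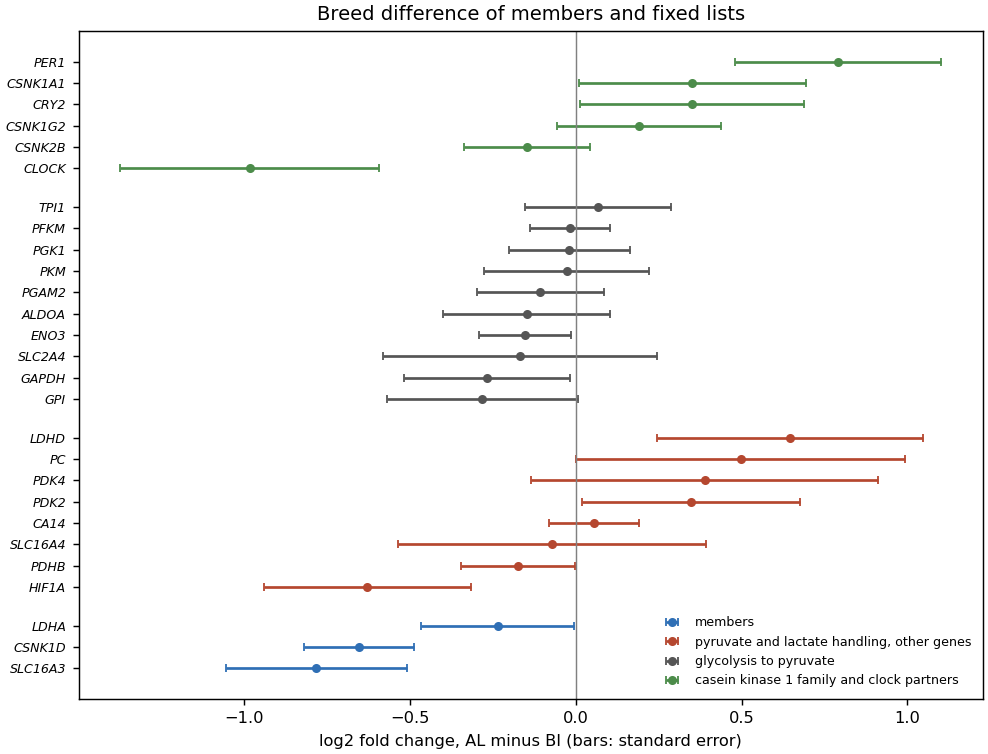
Log2 fold change, AL minus BI, of CSNK1D, SLC16A3 and LDHA (blue) and of the tested genes of 3 lists, with bars of 1 standard error; values below 0 are higher in BI. SLC16A3 (-0.78) and CSNK1D (-0.65) lie left of 0, and the glycolysis genes lie close to 0. List genes at a like or larger distance are CLOCK (-0.98) and HIF1A (-0.63) on the left and PER1 (0.79) and LDHD (0.65) on the right.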

How the data were processed

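The authors trimmed stranded paired-end reads with Trim Galore 0.5.0, mapped them to Sscrofa11.1 with HISAT2 2.1.0, converted them with SAMtools 1.9 and counted them per gene with HTSeq 0.11.1, then divided the counts by DESeq2 size factors. The deposited table holds these normalised counts, a signal per gene and pig. It also holds deposited columns of a mean, a log2 fold change, its error and test scores, a p-value and an adjusted p-value of the authors' own comparison, which were not used.

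All values came out as whole multiples of 1 read's worth (tolerance 0.001), which gave the reads per library. Genes with a sum of at least 50 over the 5 pigs of a breed were tested with limma 3.58.1 (intensity trend) on log2(value + 1), with Benjamini-Hochberg adjustment and a threshold of 0.05. DESeq2 1.42.0 and edgeR 4.0.16 on the recovered reads were alternatives. Permutation tests were two-sided, with 100000 resamples for 10 pigs and all orders for 6. The relations of CSNK1D were restricted to 6 pigs after its values were seen, and the relations of LDHA with glycolysis genes were also added then. No duplicated library was found. Replicates are separate pigs. Copies of exons were searched with BLAST+ 2.17.0 against the RefSeq assembly. The script was tested on simulated data of 3657 genes, where limma found 40.7% of 91 genes changed 2-fold and 93.5% of 107 genes changed 4-fold.

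The 6 genes and the lists were chosen with earlier results of these data known. Genes named are the 6, those within 5 kb on the opposite strand, the next genes within 50 kb of CSNK1D, from each list the 2 in each direction with the smallest p, and the 5 most like CSNK1D and SLC16A3. Genes named beside these (INTS11, the glycolysis genes per kb, markers at 3 reads or fewer, LDHC, CSNK1G2, CSNK1A1 and the paper's most expressed genes) were named after their values were seen. One gene of the pyruvate and lactate list is not reported here and was left out of its counts.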

Additional observations from a re-analysis of the deposited data

Results flagged for a closer look

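The normalised count of CSNK1D in BI37, 790, lay apart from the other BI pigs, which stood between 1351 and 1417. Its gap to the nearest BI pig was 0.894 of the range of the breed, the size of gap that marks a sample here by Dixon's ratio. This is a description and no test, since CSNK1D was chosen on these values, and chance sets apart about 1 in 20 such groups.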

How the results depend on the processing

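The log2 fold change of SLC16A3 kept its direction and its side of the threshold in 19 of 19 alternatives (-0.90 to -0.52, adjusted p 0.243 to 0.626), and that of LDHA in 20 of 20 (-0.36 to -0.05, adjusted p 0.687 to 0.941). The log2 fold change of CSNK1D, which was not tested, kept its direction in 20 of 20 (-0.82 to -0.61). The r of SLC16A3 and LDHA stayed under the threshold in 15 of 15 alternatives (0.19 to 0.61). In the lower set of 6 pigs, the r of CSNK1D with SLC16A3 ranged from 0.03 (TMM scaling) to 0.17 over 4 alternatives. With LDHA it ranged from 0.14 (library sizes without the 10 highest genes) to 0.60, and all stayed under the threshold. Leaving out AL44 and AL49, which was not among these alternatives, made r -0.53 with SLC16A3 and -0.22 with LDHA. The number of genes called, 1 with limma, was 55 with DESeq2, 40 with no minimum count, 2 with a pseudocount of 10 and 0 with a mean of 50 in each breed, and leaving out 1 pig gave 1 to 40. It was 40 without AL44, 4 without AL52, 3 without BI36 and 4 without BI37, and the cause was not tested. Other scalings moved the median of all genes by at most 0.01. Low counts left LDHB untested and limit SLC16A3, with 10 to 30 reads per pig, which has no value under the minimum mean of 50. No paired analysis was possible because the labels share no replicate numbers between breeds.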
